A study of Rattus norvegicus with 24 samples.

Results

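The steroid-converting enzymes of rat liver examined here were the aldo-keto reductases Akr1c13 and Akr1c2, the hydroxysteroid dehydrogenases Hsd3b5, Hsd11b1 and Hsd17b2, the steroid reductase Srd5a1 and the steroid hydroxylase Cyp17a1. They were 7 of the 15319 genes with counts, found by matching the Entrez gene IDs of both count tables to these rat symbols, and all 7 were present in both tables. They were selected on enzyme class, with their levels and their differences by sex and exposure in these counts already known. The livers came from 24 rats of the outbred Sprague-Dawley stock, in 4 groups of 6, with 1 bulk RNA-seq library per animal. PCB 52, a polychlorinated biphenyl, was inhaled nose-only for 4 h a day over 28 days. The groups were PCB 52 females and sham females, 42 days old when exposure began, and PCB 52 males and sham males, 39 days old at that point. All animals arrived at 28 days of age and were trained in the inhalation apparatus after 8 days of acclimation, and the labels name no genetic change in any group. The labels describe the air stream over PCB 52-coated beads (12 L/min) but only name the sham exposure.

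The liver takes up circulating steroids and changes their activity. Srd5a1 reduces the steroid A ring to give 5-alpha-reduced steroids, Hsd3b5 and the Akr1c enzymes act on keto and hydroxyl groups, Hsd17b2 oxidises active estrogens and androgens to weaker ketones, Hsd11b1 regenerates active glucocorticoid, and Cyp17a1 hydroxylates and cleaves the steroid side chain. In rats many such enzymes differ between the sexes, and the sex-specific pattern of growth hormone release, which signals through STAT5 in hepatocytes, is a known regulator of that difference.

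RefSeq promoter sequences (assembly GRCr8, 250 bases before to 50 after the gene start) were found for 3 of the 7 genes. All 3 are shown, and availability alone decided which genes these were. Akr1c13 showed no called sex difference, Akr1c2 was lower and Srd5a1 higher in females. Genes without a sequence, Hsd3b5 and Hsd11b1 among them, were not searched. Each is printed 5′ to 3′ on the gene's strand, with matches to the motifs searched in capitals. The regions are chr17:70894386-70894685 (plus strand) for Akr1c13, chr17:70717831-70718130 (minus strand) for Akr1c2 and chr1:35514664-35514963 (plus strand) for Srd5a1.
Akr1c13: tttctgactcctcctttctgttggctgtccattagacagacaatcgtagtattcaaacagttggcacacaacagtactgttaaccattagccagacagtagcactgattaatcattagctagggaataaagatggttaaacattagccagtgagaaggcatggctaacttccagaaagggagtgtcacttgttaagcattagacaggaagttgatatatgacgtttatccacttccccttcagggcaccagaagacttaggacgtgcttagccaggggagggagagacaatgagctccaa
Akr1c2: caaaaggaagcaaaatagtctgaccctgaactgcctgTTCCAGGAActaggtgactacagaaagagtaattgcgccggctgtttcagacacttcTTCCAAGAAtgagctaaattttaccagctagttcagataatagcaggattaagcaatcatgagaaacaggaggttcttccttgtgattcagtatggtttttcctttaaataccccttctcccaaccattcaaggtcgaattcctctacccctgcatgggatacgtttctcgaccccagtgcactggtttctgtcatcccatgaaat
Srd5a1: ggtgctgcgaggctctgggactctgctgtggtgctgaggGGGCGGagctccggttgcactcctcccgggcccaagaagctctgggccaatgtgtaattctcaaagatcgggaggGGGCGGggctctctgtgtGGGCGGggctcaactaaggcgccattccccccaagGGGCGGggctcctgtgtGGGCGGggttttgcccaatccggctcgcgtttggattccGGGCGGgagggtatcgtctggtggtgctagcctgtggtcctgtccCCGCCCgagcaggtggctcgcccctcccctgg
Both strands were searched for the STAT5 core TTCNNNGAA, the antioxidant response element core TGACNNNGC, the steroid receptor half-site TGTTCT, the GC box GGGCGG and the TATA box TATAAA. The Akr1c2 window held 2 STAT5 core matches, TTCCAGGAA starting at -213 and TTCCAAGAA starting at -156 relative to the gene start. Of 33469 RefSeq promoters of the same length, 8.87% held that core. The Srd5a1 window, with 67.7% G and C, held 7 GC boxes, and 33.1% of all promoters held at least 1. For neither motif was the share of promoters with as many matches computed. The Akr1c13 window held none of these letters, and the shares of all promoters with the remaining motifs were 12.1% (TGACNNNGC), 20.7% (TGTTCT) and 14.2% (TATAAA). A match is a run of letters and not a measured binding site.

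Library totals ranged from 6994832 to 9185511 counts. The tissue label matched its markers: the summed level of 8 hepatocyte markers was 148738 to 190478 counts per 1000000 library counts (CPM) in the 24 libraries, and of 7 measured markers of adrenal or gonadal steroid-making cells it was 0.874 to 3.73 CPM, with Cyp11a1, Cyp11b1 and Cyp11b2 at 0 in every library. Along the leading component of log2 CPM after removing group means, which held 13.2% of the within-group variance, the PCB 52 females and males numbered 13 to 16 by animal scored 12.9 to 21.8, against -17.4 to 13.4 in the other 20 libraries. Neighbouring animal numbers often had like scores in both sexes: sham animals 11 and 12 were at 13.1 and 13.4, and PCB 52 animals 17 to 20 lay at the other end, at -17.4 to -12.5. The fold changes of the 7 genes by exposure were also computed without animals 13 to 16, an alternative carried over from earlier work on these data, and the values that differ are given beside the results. All sham animals were numbered 1 to 12 and all PCB 52 animals 13 to 24. Exposure and any effect that follows the numbering therefore cannot be told apart, for any gene. Females and males were counted in separate tables, so sex and table cannot be told apart. Sex also cannot be told apart from age at the start of exposure, 42 days in females and 39 in males. In bulk liver, fewer cells of a type and less RNA per cell cannot be told apart either. CPM values are not corrected for transcript length, so no level is compared between genes.

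**Figure D1:**
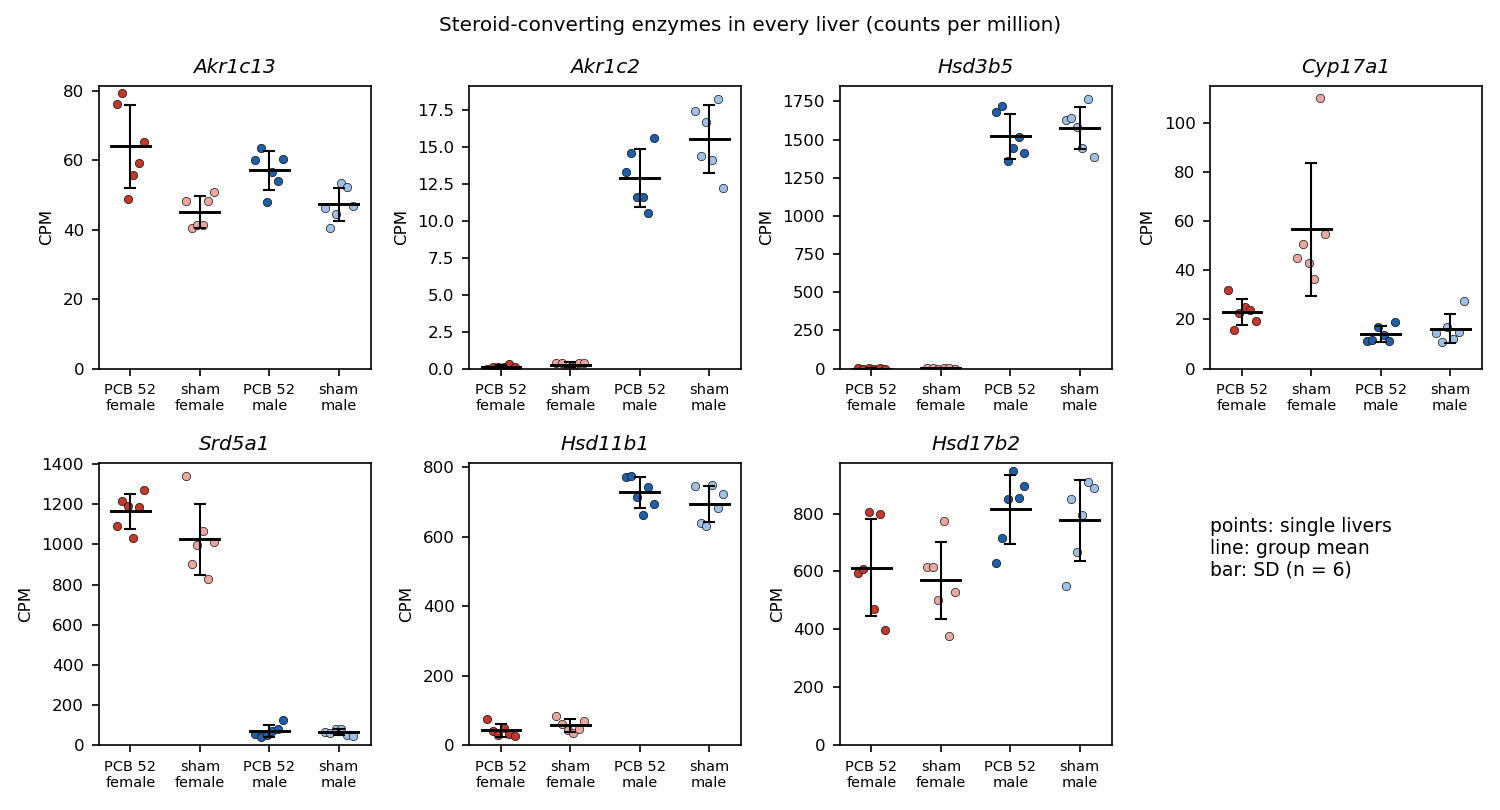
Level of each enzyme gene in every liver, in CPM on a linear axis that starts at 0, with PCB 52 females, sham females, PCB 52 males and sham males from left to right; points are livers, lines are means and bars are SD (n = 6). Hsd3b5 and Akr1c2 are near 0 in all 12 females, Srd5a1 is high in females, and Cyp17a1 reaches 36.3 CPM or more only in the sham females.

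Cyp17a1 transcript was lower in PCB 52 females than in sham females without any overlap of the groups. Its levels in the 6 PCB 52 females were 31.8, 15.8, 22.4, 25, 23.8 and 19.2 CPM, with a mean of 23 ± 5.45 CPM (SD, n = 6). The 6 sham females had 45.1, 50.7, 42.8, 36.3, 110 and 54.6 CPM, with a mean of 56.5 ± 26.7 CPM (SD, n = 6). Sham female replicate 5 stood far above the other sham females, and the lowest sham female was still above the highest PCB 52 female. The log2 fold change was -1.28 ± 0.26 (SE), a 2.44-fold lower level, with a 95% confidence interval of -1.85 to -0.72. Cyp17a1 ranked 10 of 10251 genes by p and did not pass the threshold of 0.05 after adjustment over all genes (adjusted p = 0.284, edgeR quasi-likelihood test). A complete separation downward occurred in 0.166% of the genes tested, and the gene was chosen with this value known. The call turned on 1 library: without sham female replicate 5 the fold change was -0.98 and the adjusted p 0.0215, and over the 12 fits that each leave out 1 library the adjusted p ran from 0.0215 to 0.532. Without animals 13 to 16 the fold change was -1.32 (adjusted p = 0.498). DESeq2 on the same genes gave an adjusted p of 1.38e-04.

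In males Cyp17a1 did not separate by exposure. PCB 52 males ranged from 11 to 18.8 CPM with a median of 12.8, and sham males from 10.8 to 27.4 CPM with a median of 14.7. The log2 fold change was -0.19 ± 0.21 (interval -0.64 to 0.26, adjusted p = 0.893). It was 0.01 without sham male replicate 6, the liver at 27.4 CPM, and -0.31 without PCB 52 male replicate 6. The female log2 fold change minus the male one was -1.10 ± 0.36, with an unadjusted p of 0.00598, rank 16 of 10535 genes and an adjusted p of 1. Across the 4 groups the mean was highest in sham females, followed by PCB 52 females, then sham males and last PCB 52 males, and each neighbouring pair other than the 2 female groups overlapped. Between the sexes, Cyp17a1 in PCB 52 females over PCB 52 males gave 0.69 ± 0.26 and missed the threshold (adjusted p = 0.0648), though it passed in those 12 libraries fitted alone (adjusted p = 0.00696). Sham females had higher Cyp17a1 than sham males, by 1.79 ± 0.25 (adjusted p = 1.05e-05) and without overlap.

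Akr1c13, a reductase of the 1C family, had higher mean levels after PCB 52 in both sexes, in neither case past the threshold. PCB 52 females had 76.2, 79.4, 48.8, 55.6, 59.1 and 65.1 CPM (mean 64.1 ± 11.9, SD, n = 6), and sham females had 48.2, 40.5, 41.4, 41.2, 48.3 and 50.8 CPM (mean 45.1 ± 4.53, SD, n = 6). PCB 52 males had 59.9, 63.4, 47.9, 56.6, 53.9 and 60.4 CPM (mean 57 ± 5.52, SD, n = 6), and sham males had 46.1, 40.6, 44.5, 53.4, 52.3 and 46.7 CPM (mean 47.3 ± 4.81, SD, n = 6). Every exposed liver was above the sham mean of its sex, and in each sex the ranges overlapped through the lowest exposed livers, replicate 3 of both. The log2 fold change was 0.52 ± 0.12 in females (interval 0.26 to 0.78, adjusted p = 0.317), where it ranked 14 of 10251 genes by p. In males it was 0.28 ± 0.09 (interval 0.10 to 0.47, adjusted p = 0.829), at rank 39 of 10180. DESeq2 gave an adjusted p of 0.0476 in females. The female response exceeded the male one by 0.23 ± 0.16, within its error (adjusted p = 1). The livers of animals 14 and 16 were the highest among females and that of animal 15 the highest among males. Without animals 13 to 16 the fold change was 0.35 in females (adjusted p = 0.811) and 0.24 in males. Over the 24 libraries, group means removed, Akr1c13 correlated with the leading component at r = 0.606, and over the 20 libraries without those animals at 0.47; the part of that component in the fold change was not tested.

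The female sums of Hsd3b5 and Akr1c2, a male-specific ketosteroid reductase and a second 1C reductase, were too low for a test of exposure in females. Hsd3b5 had 3, 0, 1, 0, 1 and 0 counts in PCB 52 females and 6, 2, 0, 4, 7 and 0 counts in sham females. Akr1c2 had 0, 1, 1, 1, 2 and 1 counts in PCB 52 females and 3, 3, 0, 1, 3 and 3 counts in sham females. Both had fewer counts in PCB 52 females (sums of 5 and 6) than in sham females (sums of 19 and 13), and neither passed the count filter. In males, where both were well counted, Hsd3b5 averaged 1523 ± 147 CPM in PCB 52 livers and 1575 ± 137 CPM in sham livers (SD, n = 6 each), a log2 fold change of -0.03 ± 0.08. Akr1c2 averaged 12.9 ± 1.95 CPM in PCB 52 males and 15.5 ± 2.31 CPM in sham males (SD, n = 6 each), a log2 fold change of -0.26 ± 0.13 with an adjusted p of 0.829, and 5 of 6 PCB 52 males lay below the sham mean.

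Srd5a1, Hsd11b1 and Hsd17b2 showed no exposure difference past the threshold in either sex. Srd5a1 had 1091, 1215, 1193, 1033, 1187 and 1272 CPM in PCB 52 females and 1343, 903, 995, 1065, 828 and 1014 CPM in sham females. All 6 PCB 52 females were above the sham mean, while the highest single liver was a sham one, and the fold change was 0.19 ± 0.12 (interval -0.06 to 0.44, adjusted p = 0.608). In males the Srd5a1 fold change of 0.17 ± 0.28 rested on PCB 52 male replicate 6 at 126 CPM, and it was -0.09 without that liver and 0.40 without animals 13 and 15. Hsd11b1, which makes active glucocorticoid, averaged 41.9 ± 17.8 CPM in PCB 52 females and 56.6 ± 18.4 CPM in sham females (SD, n = 6 each). Its fold change of -0.42 ± 0.28 (interval -1.04 to 0.19, adjusted p = 0.642) ran from -0.68 without PCB 52 female replicate 1 to -0.25 without sham female replicate 1, the highest liver of each group, and it was -0.73 without animals 13 to 16. In males Hsd11b1 differed by 0.08 ± 0.07. Hsd17b2, the oxidative dehydrogenase, differed by 0.10 ± 0.19 in females (interval -0.30 to 0.50) and by 0.09 ± 0.12 in males (interval -0.17 to 0.35), where it was 0.23 without animals 13 and 15.

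None of the 5 enzyme genes tested in females and none of the 7 tested in males passed an adjusted p of 0.05 by edgeR, against 0% of all genes in each sex. At an unadjusted p under 0.05, 1 of the 5 was higher (Akr1c13) and 1 lower (Cyp17a1) in females, where 4.64% of all genes (476) were higher and 5.32% (545) lower. In males 1 of the 7 was higher (Akr1c13) and 0 lower, where 2.9% of all genes (295) were higher and 2.85% (290) lower. DESeq2 called 28 genes in females, among them Akr1c13 and Cyp17a1, and 1 gene in males that was none of the 7. For the difference between the sexes in response, 0 of 7 passed by edgeR or DESeq2 against 0% of all genes, and 2 of 7, Cyp17a1 and Hsd3b5, were lower in females at an unadjusted p below 0.05. Over the genes tested, 1.33% were lower and 0.94% higher by that rule. The Hsd3b5 value of -1.70 ± 0.71 rested on the few female counts listed above. Since the 7 genes were chosen with results of these data known, these shares describe the genes and test nothing about them.

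**Figure D2:**
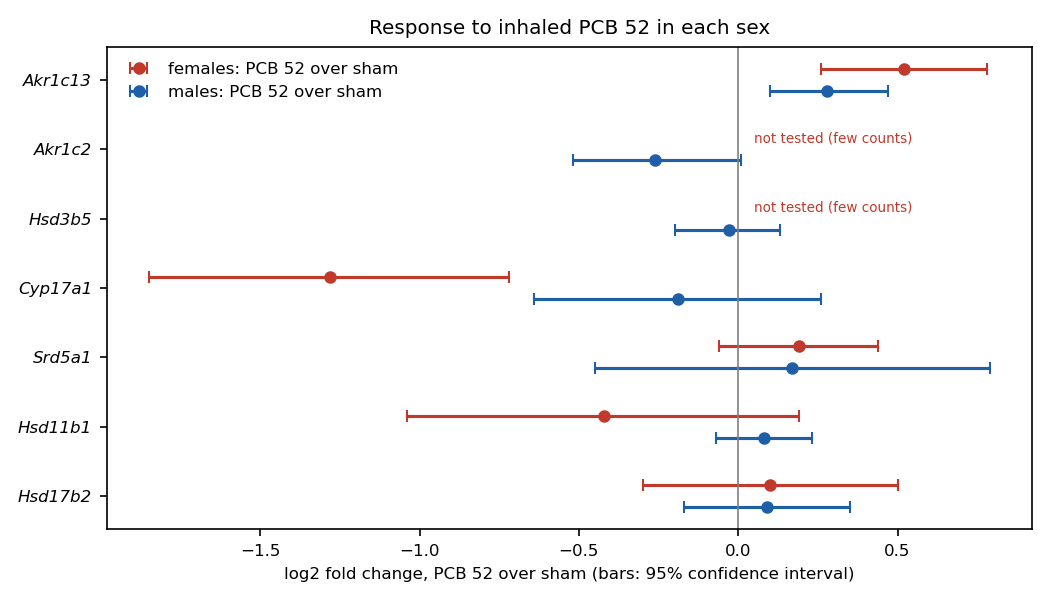
log2 fold change of PCB 52 over sham for each enzyme gene in females (red) and males (blue), with 95% confidence intervals as bars and 0 as a grey line. Intervals exclude 0 for Cyp17a1 in females (-1.85 to -0.72) and for Akr1c13 in both sexes, before any adjustment over genes, and Akr1c2 and Hsd3b5 have too few counts in females.

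For Hsd3b5, Akr1c2, Srd5a1 and Hsd11b1 the fold changes by sex exceeded every exposure fold change of the 7 genes. Of the 7 genes, 4 differed between females and males at an adjusted p under 0.05 in both exposure groups: Srd5a1 was higher in females, and Hsd3b5, Akr1c2 and Hsd11b1 were lower. Under PCB 52, 1 of 7 was higher and 3 were lower in females, where 10.1% of all genes were higher and 9.73% lower. Under sham, 2 of 7 were higher (Srd5a1 and Cyp17a1) and 3 lower, where 10.7% of all genes were higher and 9.62% lower. These counts are a description, because the genes were proposed with the sex differences known. Hsd3b5 and Akr1c2 also passed the count filter of the joint fit through the males alone.

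Hsd3b5 had the widest sex difference of the 7. PCB 52 females ranged from 0 to 0.364 CPM and PCB 52 males from 1362 to 1719 CPM, and sham females ranged from 0 to 0.878 CPM and sham males from 1389 to 1763 CPM. Pooled over the libraries of a group, males exceeded females 14960-fold under PCB 52 (95% interval 6410 to 46075) and 4206-fold under sham (2693 to 6987), with intervals that cover counting error only. Of the 5 counts in PCB 52 females, 3 came from replicate 1. The fitted log2 differences, female over male, were -13.70 ± 0.30 and -12.00 ± 0.26 (adjusted p = 8.90e-24 and 1.18e-23), and the PCB 52 value was -14.57 without that liver. For Akr1c2 the fitted differences were -6.58 ± 0.29 under PCB 52 and -5.86 ± 0.25 under sham (adjusted p = 4.09e-17 and 2.53e-17), and the pooled ratios of males over females were 105 and 60.6, with lower 95% bounds of 48 and 35.2. Both genes were thus almost without counts in females of either exposure group and steadily counted in every male. They passed the count filter of the joint fit through the males alone, so their adjusted p restates those counts.

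Srd5a1 ran the other way. It averaged 1165 ± 87.3 CPM in PCB 52 females against 69.7 ± 30.6 CPM in PCB 52 males, and 1025 ± 178 CPM in sham females against 62.9 ± 14.8 CPM in sham males (SD, n = 6 each). The log2 differences of 4.02 ± 0.24 and 4.00 ± 0.24 (adjusted p = 4.25e-12 and 4.63e-12) were 16.2-fold and 16-fold. Hsd11b1 was lower in females, with 41.9 ± 17.8 CPM in PCB 52 females against 727 ± 45 CPM in PCB 52 males, and 56.6 ± 18.4 CPM in sham females against 695 ± 52.2 CPM in sham males (SD, n = 6 each). Its log2 differences were -4.15 ± 0.23 and -3.65 ± 0.22 (adjusted p = 9.74e-13 and 5.94e-12). For Hsd3b5, Akr1c2, Srd5a1 and Hsd11b1 no female liver overlapped any male liver of the same exposure. Such a separation was found upward in 5.89% and downward in 3.96% of all genes under PCB 52, and upward in 6.71% and downward in 4.8% under sham.

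Hsd17b2 had a smaller sex difference. It averaged 613 ± 167 CPM in PCB 52 females and 815 ± 120 CPM in PCB 52 males, and 569 ± 133 CPM in sham females and 777 ± 141 CPM in sham males (SD, n = 6 each). The log2 difference was -0.46 ± 0.17 in each exposure group, with adjusted p = 0.0639 under PCB 52 and 0.0574 under sham, and the ranges overlapped. It passed under DESeq2 in both groups (0.0361 under PCB 52 and 0.0311 under sham). Akr1c13 differed between the sexes by 0.14 ± 0.11 under PCB 52 (interval -0.09 to 0.36) and by -0.09 ± 0.11 under sham (interval -0.32 to 0.13). Differences between the groups held 99.3% of the variance of log2 CPM for Hsd3b5, 98.4% for Akr1c2, 97.3% for Hsd11b1, 97.2% for Srd5a1, 78.4% for Cyp17a1, 55.2% for Akr1c13 and 41.3% for Hsd17b2.

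Akr1c13 and Akr1c2 lie in a cluster of 10 Akr1c genes on chromosome 17 in the RefSeq gene table, in the order Akr1c2, Akr1c1, AKR1C3l1, Akr1c12l1, Akr1c13, Akr1c19, Akr1c12, Akr1c3, Akr1c14 and Akr1c15. Neighbours in this cluster had very different sex patterns. Under PCB 52, 5 of the 10 were lower and 1 was higher in females, and under sham 5 were lower and 2 higher, by adjusted p. Over all genes 9.73% were lower and 10.1% higher under PCB 52, and 9.62% lower and 10.7% higher under sham. Akr1c2 and Akr1c3, both counted as lower, passed the count filter through the males alone. Akr1c1 averaged 2.29 ± 1.27 CPM in PCB 52 females against 81.7 ± 27.9 CPM in PCB 52 males, and Akr1c12 averaged 14 ± 14.6 CPM against 432 ± 48.7 CPM in the same groups (SD, n = 6 each). For Akr1c12 the PCB 52 females ranged from 5.83 to 43.2 CPM and the PCB 52 males from 375 to 498 CPM. Akr1c3, whose product is a steroid ketone reductase, had no count in any PCB 52 female and 6.75 to 9.48 CPM in PCB 52 males. Akr1c14, the 3-alpha-hydroxysteroid dehydrogenase of rat liver, was higher in females, at 2205 ± 164 CPM in PCB 52 females against 1128 ± 193 CPM in PCB 52 males (SD, n = 6 each).

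By exposure, no cluster gene passed the threshold by edgeR among 8 tested in females and 10 tested in males, against 0% of all genes. Beside a median of 0.00 over all genes in each sex, 6 of the 8 and 7 of the 10 fold changes were above 0. The largest of these was that of Akr1c12l1, next to Akr1c13, at 0.87 ± 0.29 for females (adjusted p = 0.392), beside 0.62 ± 0.25 for males (adjusted p = 0.829). Its levels were low, 5.68 ± 3.02 CPM in PCB 52 females against 3.1 ± 0.915 CPM in sham females, and 5.21 ± 1.68 CPM in PCB 52 males against 3.39 ± 1.1 CPM in sham males (SD, n = 6 each). Akr1c genes are close copies of each other, so reads may be shared between them. The RefSeq table also lists Akr1c12 as a synonym of the gene called Akr1c13 here (Entrez ID 361266) and Akr1c13 as a synonym of the gene called Akr1c12 (364773), and the names follow the IDs.

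**Figure D3:**
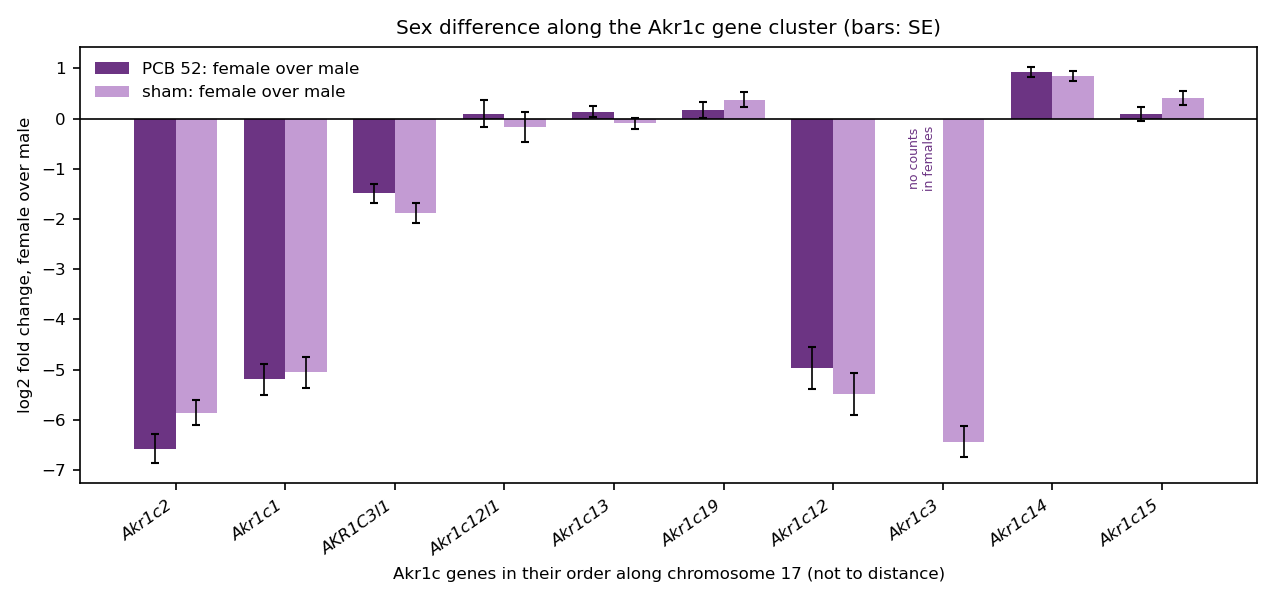
log2 fold change of females over males for the 10 Akr1c genes in their chromosomal order, under PCB 52 (dark) and under sham (light); bars on the columns are SE, and no column is drawn for Akr1c3 under PCB 52, where every female had 0 counts. Akr1c2, Akr1c1, AKR1C3l1, Akr1c12 and Akr1c3 lie below 0, while Akr1c13 and its neighbours Akr1c12l1 and Akr1c19 lie near 0.

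The 11 lists held 101 other measured genes of steroid metabolism and its control. By edgeR, no tested gene of these passed the adjusted threshold for exposure in either sex, against 0% of all genes. DESeq2 results for these genes are not given here. In females the list that moved most was that of 13 glucocorticoid-responsive genes, a list chosen with earlier results of these data known. Of these 13 genes 12 had a fold change below 0, with a median of -0.53 against 0.00 for all genes, and 10 were lower at an unadjusted p below 0.05, where 5.32% of all genes were. The gluconeogenic enzyme gene Pck1 averaged 2632 ± 632 CPM in PCB 52 females and 4171 ± 584 CPM in sham females (SD, n = 6 each), a log2 fold change of -0.66 ± 0.13. The metallothionein Mt2A had -0.63 ± 0.15 and the glucose-releasing phosphatase G6pc1 -0.41 ± 0.12 (adjusted p = 0.172, 0.317 and 0.341 for the 3 genes). In males 8 of the 13 were below 0, with a median of -0.12, and none had an unadjusted p under 0.05. Nr3c1, the glucocorticoid receptor, had a fold change of 0.20 ± 0.09 in females (edgeR adjusted p = 0.501). H6pd, which supplies Hsd11b1 with its cofactor, had one of -0.24 ± 0.12 in females (edgeR adjusted p = 0.523). Any link of these values to the glucocorticoid-responsive genes was not tested. Of 7 periportal hepatocyte markers, a list that also holds Pck1, 4 were above and 3 below 0 in females, with a median of 0.00.

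The electron donor of microsomal steroid P450s, Por, averaged 346 ± 96.5 CPM in PCB 52 females and 473 ± 89.6 CPM in sham females (SD, n = 6 each), a fold change of -0.45 ± 0.15 (adjusted p = 0.392). Of the 6 electron donors listed, 3 were above and 3 below 0 in females, with a median of 0.03. Cyb5r3 went the other way from Por, at 0.27 ± 0.12 (edgeR adjusted p = 0.485). Of the 9 steroid P450 hydroxylases tested in females, 3 were higher and 1 lower at an unadjusted p under 0.05, beside 4.64% higher and 5.32% lower among all genes. Cyp3a18 had -0.74 ± 0.24, Cyp3a2 had 0.64 ± 0.25 at only 5.28 CPM in PCB 52 females, and Cyp2c12, the female-specific hydroxylase of rat liver, had 0.31 ± 0.13. In males Cyp2c11, the male-specific hydroxylase, had 0.22 ± 0.08, and the estrogen receptor Esr1 had 0.48 ± 0.14 at 15.9 CPM in PCB 52 males and 11.5 CPM in sham males (adjusted p = 0.829 for both). Of 12 regulators of growth hormone signalling and sex pattern, 9 were above and 3 below 0 in females, with a median of 0.18. In males 4 were above and 8 below 0, with a median of -0.07. Hnf4a, one of those below 0 in females, had -0.24 ± 0.08 and Ghr 0.22 ± 0.12 there, and Stat5a had -0.29 ± 0.13 in males. Hsd17b10, a mitochondrial dehydrogenase, had -0.29 ± 0.11 in females and -0.20 ± 0.08 in males. The other dehydrogenase and conjugation lists had medians between -0.14 and 0.14 in females and between 0.01 and 0.17 in males.

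**Figure D4:**
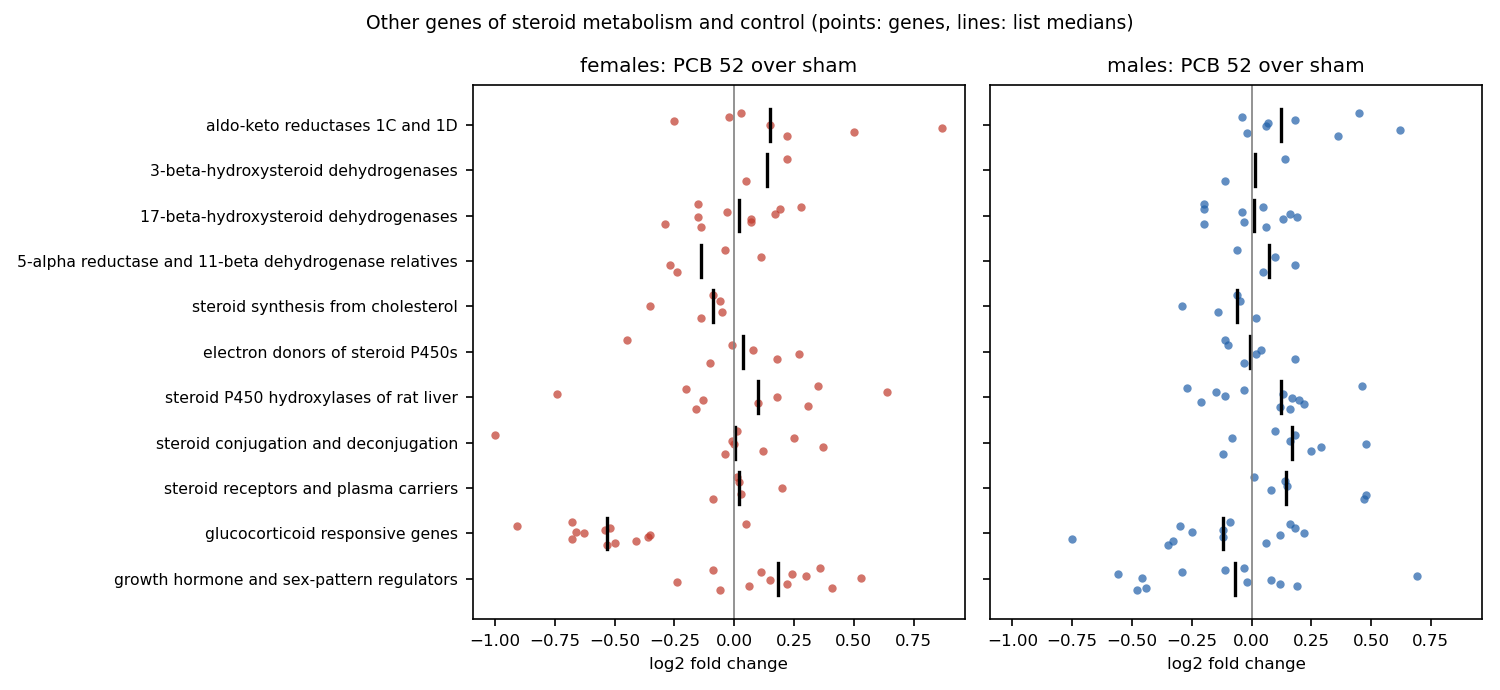
log2 fold change of PCB 52 over sham for the other genes of steroid metabolism and control, females in the left panel and males in the right, with 1 point per gene and a line at each list's median. The glucocorticoid-responsive genes lie mostly below 0 in females, with a median of -0.53, and are spread around a median of -0.12 in males.

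The sex differences of the 7 genes stood beside strong ones in the same lists. Of 12 steroid P450 hydroxylases, 4 were higher and 7 lower in females by adjusted p in each exposure group. The shares of all genes were 10.1% higher and 9.73% lower under PCB 52, and 10.7% and 9.62% under sham. Of the 12, Cyp2c11, Cyp2c13 and Cyp2a2 passed the count filter through the males alone. Cyp2c13 averaged 0.775 CPM in PCB 52 females against 1889 CPM in PCB 52 males and 0.49 CPM in sham females against 1656 CPM in sham males, and Cyp2c12 averaged 9371 CPM against 68 CPM and 7640 CPM against 79.8 CPM in the same order. Among conjugating enzymes, the estrogen sulfotransferase Sult1e1 was nearly without counts in females and averaged 791 CPM in PCB 52 males and 670 CPM in sham males, whereas Sult2a6 averaged 2036 CPM in PCB 52 females and 2046 CPM in sham females against 52.7 CPM and 38.2 CPM in males of the same exposure. Of the regulators, the prolactin receptor Prlr, the repressor Cux2 and Trim24 were higher in sham females than in sham males by 7.13 ± 0.45, 6.15 ± 0.44 and 4.79 ± 0.42 on the log2 scale.

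Within groups the 7 genes did not vary together to an extent that passed a test. Of the 21 pairs, over 24 libraries with group means removed, none passed after adjustment. Hsd3b5 and Akr1c2 had at most 7 and 3 counts in any female, so pairs with either could hardly show shared variation among females. The highest coefficient was that of Akr1c13 with Hsd11b1 (Pearson r = 0.443, permutation p = 0.113, adjusted p = 0.881; Spearman rho = 0.384, permutation p = 0.115), with r = 0.464 in the 12 females and 0.516 in the 12 males, and 0.393 without the 2 libraries farthest from the median. It was 0.193 in the 20 libraries without animals 13 to 16. Single livers combined extreme values of several genes. Sham female replicate 5 had the highest Cyp17a1 of all livers (110 CPM) together with the lowest Srd5a1 (828 CPM) and the lowest Hsd17b2 (378 CPM) among females. Sham male replicate 6 had the highest Cyp17a1 among males (27.4 CPM) together with the lowest Akr1c2 (12.2 CPM) and Hsd3b5 (1389 CPM) of its group.

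The genes most like each of the 7 were found by the Pearson r of log2 CPM, group means removed, over the same 24 libraries and 10476 genes, as a description. Akr1c13 was closest to Ssr1, a subunit of the endoplasmic reticulum translocon complex (r = 0.882), with 0.923 in females and 0.762 in males, and then to Selenot (0.822). Cyp17a1 was closest to Ubap1 (0.764) and to the Fc receptor gene Fcgr1a (0.72). Hsd11b1 was closest to Agmo (0.868), and then to Pgrmc1 (0.805), with 0.889 in females but -0.118 in males. Hsd3b5 was closest to Apoa1 (0.799), where r was 0.931 in females, which had at most 7 counts of Hsd3b5, and -0.00404 in males. Hsd17b2 was closest to the circadian gene Ciart (0.747) and Srd5a1 to Snx9 (0.732). Akr1c2 was closest to Ten1 (0.745), where r was 0.761 in females, which had at most 3 counts of Akr1c2, and 0.674 in males. All libraries share their depth and their source tissue, and these values say nothing of shared control.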

How the data were processed

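Liver RNA from 24 rats was sequenced, 1 library per animal. The deposited values were raw gene counts, in 1 table for each sex, per the labels. Per the submitters' processing notes, FastQC and HISAT2 were used with genome build rn6. How reads were assigned to genes, by which tool, strand and annotation, is not given in the sources used here, so overlapping and antisense genes could not be told apart. Both tables held the same 15319 Entrez IDs, of which 15230 matched a RefSeq symbol (GRCr8). The 89 others, at most 2.3% of a library's counts, stayed in totals and tests.

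Counts were tested with edgeR 4.0.16 (TMM factors, filterByExpr with a minimum count of 10, robust quasi-likelihood test) in R 4.3.3, with Benjamini-Hochberg adjustment over all genes tested and a threshold of 0.05. Exposure was tested within each sex on 12 libraries, and sex differences and the difference in response on all 24 libraries joined by gene ID. CPM used library totals, and log2 CPM for correlations used TMM and a prior count of 2. Precision followed from 6994832 to 9185511 counts per library, and intervals of pooled ratios cover counting error only. The labels do not say how RNA handling was batched. Replicates are separate animals, numbered in accession order, and the least different pair of one group still differed by a chi-square of 6.68 per degree of freedom, above sampling noise. DESeq2 1.42.0, other normalization and filters, leaving libraries out and a block of neighbouring animal numbers were alternatives. limma 3.58.1 was loaded for edgeR only. The fits were also run on simulated counts with the same dispersion for every gene, a simpler setting than the real counts.

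The 7 genes, the gene lists and the tests were chosen with earlier results of these data known. Named genes were the 7, up to 3 genes with the smallest p per list and comparison, and the 2 genes most like each of the 7; Akr1c neighbours were named as a cluster after their values were seen.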

Additional observations from a re-analysis of the deposited data

Results flagged for a closer look

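Cyp17a1 in sham female replicate 5 was 110 CPM, with a gap to the next liver of 0.751 of the group's range. In sham male replicate 6 it was 27.4 CPM, with a gap of 0.633 of the range. Both exceeded Dixon's 95% critical value of 0.625 for 6 samples. These were the only 2 marked among 28 groups tested (7 genes in 4 groups), and chance marks about 1 group in 20.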

How the results depend on the processing

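Replicate numbers were given in accession order and pair no animals. The labels give consecutive animal numbers to a male and a female of the same exposure without saying that they share anything. Over genes, group means removed, such neighbours correlated at -0.0406 to 0.221, above 0.1 in 6 of 12 pairs, and 10 of 24 libraries were closest to their own neighbour among the 6 of the other sex. A replicate block of these pairs, chosen after seeing the data, gave 0 genes for the difference in response, 2402 genes and 4 of the 7 for PCB 52 females against PCB 52 males, and 2467 genes and 5 of the 7 for sham females against sham males, and changed no call of the 7. Exposure within a sex has no such pairs. In PCB 52 against sham females, genes with adjusted p under 0.05 numbered 0, but 28 by DESeq2 (7 higher, 21 lower), 1 with all 24 libraries in 1 fit, and 0 to 8 over fits that each leave out 1 library (8 without PCB 52 female replicate 4). Of the 7 genes, 2 were called by DESeq2 and 0 to 1 with a library left out. In males DESeq2 called 1 gene, and leaving out a library gave 0. The difference in response gave 0 throughout. Leaving out a library gave 1875 to 2066 genes and 4 to 5 of the 7 for PCB 52 females against PCB 52 males, and 1928 to 2137 genes and 5 to 6 of the 7 for sham females against sham males. DESeq2 called 6 of the 7 in both.

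Some fold changes close to 0 turned sign, and the cause was not tested. In males these were Hsd3b5 (-0.07 to 0.00 with a library left out, 0.00 without sham male replicate 5), Cyp17a1 (-0.31 to 0.01, 0.01 without sham male replicate 6) and Srd5a1 (-0.09 to 0.29, -0.09 without PCB 52 male replicate 6). The difference in response turned for Srd5a1 (-0.20) and Hsd17b2 (-0.12) without animals 13 to 16. Over fits that each leave out 1 library it ran from -0.10 to 0.28 for Srd5a1, turning at -0.03, 0.00, -0.06, -0.07 and -0.10, and from -0.08 to 0.14 for Hsd17b2, turning at -0.01, -0.02, -0.03, -0.04, -0.06, -0.07, -0.08 and 0.00. Without filters, with another normalization or with a non-robust fit, no exposure call changed. Counts of 5 and 6 in females limit Hsd3b5 and Akr1c2.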
